A study of Hydra vulgaris with 15 samples.

Results

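A set of 145 transcripts of the freshwater polyp Hydra vulgaris was examined, whose RNA was present at similar levels in the head and the body column of control animals and was lower in heads after RNA interference (RNAi) against the transcription factor Zic4. They were chosen from 79784 assembled contigs by their level in CPM (the count of a transcript times 1000000, divided by the total count of its library). A transcript was taken when its mean in control heads was at least 5 CPM, its mean in control heads was between 0.67 and 1.5 times that in control body columns, its highest RNAi head lay under its lowest control head, and its mean in RNAi heads was at most 0.67 of that in control heads. The lower level in RNAi heads and the near-equal tissue levels are therefore properties of the choice and not results. The word transcript stands here for a contig, and 1 gene may have more than 1 contig.

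The libraries fell into 4 groups, all from the Basel1 strain of Hydra vulgaris. They were 4 heads and 4 body columns of Zic4 RNAi animals, and 4 heads and 3 body columns of control animals, which the labels call wild-type. Per the labels, all polyps were starved for 4 days before the experiment, intact animals were electroporated 4 times on alternate days, and RNA was taken 1 day after the last electroporation from 20 polyps per condition. A library is thus a pool of animals, and the labels do not say which reagent the controls received or whether replicates came from separate cultures, so p-values measure the spread between these libraries, which may be technical. Library totals ran from 19241701 to 20544251 counts in RNAi heads, 17345310 to 21016801 in control heads, 16020872 to 22554240 in RNAi body columns and 16022312 to 17500433 in control body columns. The level of Zic4 and of markers of head, tentacle or body column cells was not analysed here, because 0 contig IDs matched the 28925 genes of a RefSeq table of the assembly HydraT2T_AEP. Neither the knockdown nor the tissue label was therefore checked against a named gene, and transcripts are given by ID without gene names, positions or sequences.

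Zic proteins are zinc finger transcription factors that act in the development of many animals. In Hydra, epithelial cells of the body column divide and are displaced toward the head, the tentacles and the foot, where they take on the identity of that region, and tentacles are covered by epithelial battery cells that hold the stinging cells. A transcript found at equal levels in head and body column can belong to a gene used by all cells or to a cell type spread along the whole axis. In bulk RNA of this kind, fewer cells of a type and less RNA per cell cannot be told apart.

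The list was a small part of the tissue-shared transcriptome. Of 8759 transcripts that met the limits on level and tissue ratio, 472 had all RNAi heads under all control heads, and 145 of these, 1.66% of the tissue-shared transcripts, also met the limit on the size of the fall. With the limits mirrored, 38 tissue-shared transcripts were raised in RNAi heads. The mirrored limits were applied only on CPM scaled to the library total, a scale that lowers RNAi heads as a whole, as given below. On this scale the median RNAi to control head ratio of the tissue-shared transcripts was 0.984. The part of scaling in the 2 counts was not tested. The same limits on the fall took 784 of the 3646 transcripts whose control head mean was over 1.5 times the control body column mean, and 11 of the 1372 whose ratio was under 0.67. These 3 counts rest on the same control and RNAi heads and are given as a description. Transcripts under 10 CPM in control heads made up 74 of the 145, a further 63 had 10 to 100 CPM, and 8 had at least 100 CPM. The list held 3.26% of the tissue-shared transcripts in the lowest of these ranges, 1.15% of those in the middle one and 0.798% of those in the highest.

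The falls in heads were moderate. Transcripts on the list kept a median of 0.576 of their control head level, and the quartiles were 0.534 and 0.632. In all, 26 kept at most 0.5, of which 1 kept under 0.25, while 59 kept between 0.5 and 0.6 and 60 between 0.6 and 0.67. The gap between the groups was narrow for many of them. The lowest control head was a median of 1.20 times the highest RNAi head, it was at least 1.5 times as high for 10 transcripts, and it was under 1.1 times as high for 36. At the limits of the choice, the transcript nearest inside the limit on the fall kept 0.66957 of its control level and the nearest outside kept 0.67004. The nearest inside and outside the minimum level had 5.03 and 4.98 CPM in control heads. Those on either side of the upper limit of the tissue ratio stood at 1.497 and 1.502, and those on either side of its lower limit at 0.671 and 0.665. For the limit on overlap, the lowest control head was 1.0005 times the highest RNAi head just inside and 0.994 times just outside.

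By the choice, every RNAi head lay under every control head for each transcript, but the extent of the fall differed between RNAi heads. Relative to the control head mean of each transcript, the median level over the list was 0.569, 0.505, 0.599 and 0.611 in RNAi heads 1 to 4, against 0.997, 0.972, 0.935 and 1.07 in control heads 1 to 4. RNAi head 2 was the lowest of the 4 RNAi heads for 68 of the 145 transcripts, and 69 of them were under 0.5 of the control mean in that library, against 25 to 44 in the other RNAi heads. In RNAi head 2 the median of all 8759 tissue-shared transcripts was also low, at 0.928 of the control head mean, while the other RNAi heads lay between 0.985 and 1.03. Whether this shift accounts for the lower levels in RNAi head 2 was not tested. Without RNAi head 2 the rule took 146 transcripts, of which 128 were on the list. In body columns the median level on the same scale was 0.671, 0.706, 0.717 and 0.728 in RNAi body columns 1 to 4, and 0.816, 0.777 and 0.814 in control body columns 2, 3 and 4. The summed level of the list was 2139 ± 158 CPM in RNAi heads (SD, n = 4) and 3721 ± 262 CPM in control heads (SD, n = 4), and 2734 ± 81.1 CPM in RNAi body columns (SD, n = 4) and 3117 ± 114 CPM in control body columns (SD, n = 3).

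**Figure D1:**
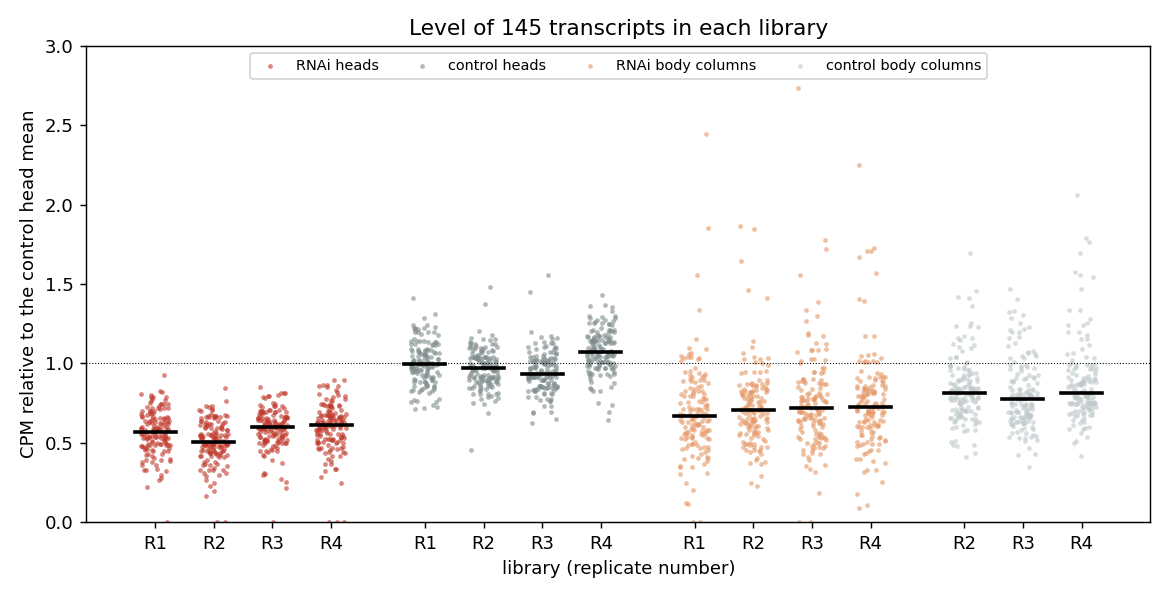
CPM of each of the 145 transcripts relative to its mean in control heads (vertical axis, no unit), by library (horizontal axis), with 1 point per transcript and a black line at the library's median. The medians lie at 0.505 to 0.611 in the 4 RNAi heads and 0.935 to 1.07 in the 4 control heads, and at 0.671 to 0.728 in the 4 RNAi body columns and 0.777 to 0.816 in the 3 control body columns.

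The most abundant transcripts of the list did not overlap between head groups, which the choice required of every transcript. GGKF01043621.1 had 144, 103, 134 and 118 CPM in RNAi heads and 244, 217, 210 and 241 CPM in control heads. It had 145, 161, 158 and 178 CPM in RNAi body columns, against 203, 161 and 219 CPM in control body columns, so that the groups overlapped in the body column. Its fitted log2 fold change in body columns was −0.22 with a standard error (SE) of 0.10, short of the threshold of 0.05 (edgeR quasi-likelihood test, Benjamini-Hochberg (BH) adjusted p = 0.296). GGKF01021257.1 had 145, 105, 108 and 97.3 CPM in RNAi heads, against 186, 188, 211 and 245 CPM in control heads. In body columns it had 135, 152, 131 and 144 CPM after RNAi and 173, 184 and 183 CPM in controls, with all 4 RNAi libraries under the 3 control libraries. The log2 fold change there was −0.30 with an SE of 0.12, and it did not pass the threshold over all transcripts (edgeR BH adjusted p = 0.242).

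Among transcripts with at least 20 CPM in control heads, 2 kept the smallest share in RNAi heads. GGKF01051520.1 had 32.1, 25.1, 41.7 and 37.4 CPM in RNAi heads and 86.6, 82.7, 72.6 and 81.8 CPM in control heads, a kept share of 0.421. Its body columns moved the other way, with 66.9, 70.1, 72 and 60.2 CPM after RNAi and 62.1, 53.1 and 57.4 CPM in controls. The body column groups overlapped by 1 library each, and the log2 fold change of 0.29 with an SE of 0.12 was short of the threshold (edgeR BH adjusted p = 0.251). GGKF01053498.1 had 16.7, 15.7, 13.4 and 12.2 CPM in RNAi heads and 29.1, 25.5, 33.1 and 38.8 CPM in control heads, a kept share of 0.458. In body columns it had 21.5, 31.3, 22.9 and 22 CPM after RNAi and 20.5, 24.5 and 37.3 CPM in controls, which overlapped.

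The 2 lowest kept shares of the whole list belonged to transcripts with exact zeros. Such zeros occurred for 5 of the 145 transcripts in at least 1 RNAi head, for 3 of these 5 in at least 1 RNAi body column too, and in 0 control libraries. An exact 0 can be a failed estimate where similar contigs compete for reads. The transcript with the lowest kept share, 0.152, was listed at 0 in RNAi heads 2 and 3 and had 1.35 and 1.70 CPM in RNAi heads 1 and 4, against 2.29 to 7.84 CPM in control heads. None of these 5 was differentially abundant in heads, where their edgeR BH adjusted p lay between 0.272 and 0.739, or in body columns.

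Similar contigs share reads in estimated counts, and values that are not whole show where reads were divided. Of the nonzero values of the list 81.0% were not whole, against 77.0% for all tissue-shared transcripts and 74.2% for the whole table. All 15 values were whole for 20 transcripts of the list (13.8%, against 16.6% of tissue-shared transcripts), GGKF01021257.1 and GGKF01053498.1 among them. The part of read division in the falls of the others was not tested.

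In the fit over all transcripts, 69 of the 145 were called lower in RNAi heads (edgeR BH adjusted p under 0.05), where 2.11% of the 31142 transcripts tested and 0.959% of the tissue-shared ones were called lower. The rule used this contrast, so the count describes only how many falls stood clear of the fitted spread. All 145 passed the filter on low counts, which a mean of 5 CPM in control heads nearly ensures. The 69 had log2 fold changes from −1.42 to −0.46. They comprised 21 of the 74 transcripts under 10 CPM, 40 of the 63 between 10 and 100 CPM and 8 of the 8 above. The median count of a listed transcript was 105 to 133 in an RNAi head, for which counting error alone is 8.67% to 9.76%. The spread between the 4 RNAi heads was larger, with a median coefficient of variation of 17.6%, against 13.5% between the 4 control heads.

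The fitted values were scaled for composition, while the CPM of the rule were scaled to the library total alone. With library size alone the median log2 fold change of all tested transcripts in heads was −0.14, against −0.020 with the composition factors, so the rule's scale lowers RNAi heads as a whole by about the difference. For the tissue-shared transcripts the median with composition factors was 0.094. On the scale with composition factors the median kept share of the list was 0.628 and the highest was 0.727. Applied on that scale, the rule took 123 transcripts, of which 82 were on the list. Of the 63 that dropped out, 44 exceeded the limit on the kept share and 22 overlapped between RNAi and control heads, while 6 fell under the minimum level and 4 left the tissue ratio, with some counted more than 1 time.

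RNAi body columns were the only libraries that the rule had not used. The control body columns they were compared with entered the rule through the tissue ratio, whose upper limit keeps transcripts with higher control body column values, so the comparison is only in part independent of the choice. The part of this limit in the values below was not tested. Of the 145 transcripts, 7 were called lower in RNAi body columns than in control body columns (4.83%, edgeR BH adjusted p under 0.05), where 0.543% of all tested transcripts and 1.02% of the tissue-shared transcripts were called lower. None was called higher by edgeR, where 1.51% of all tested and 3.89% of tissue-shared transcripts were called. At an unadjusted p under 0.05, 31 were lower (21.4%, against 6.94% of all tested and 10.3% of tissue-shared transcripts) and 6 were higher (4.14%, against 9.85% and 17.6%). DESeq2 called 17 lower, where it called 2.93% of all tested and 4.91% of tissue-shared transcripts lower, and 2 higher, where it called 5.1% and 10.4%. The median log2 fold change of the list in body columns was −0.14, against 0.011 for all tested transcripts and 0.029 for the tissue-shared ones, and 93 of the 145 (64.1%) were negative, against 48.4% and 45.5%. In 27 of the 145 (18.6%) all 4 RNAi body columns lay under the 3 control body columns, where 9.12% of all tested and 13.1% of tissue-shared transcripts did. In 4 (2.76%) all lay above, where 5.87% of all tested and 9.33% of tissue-shared transcripts did.

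These calls were few, and most of them were lost in every fit that left out 1 library except that without RNAi body column 4. The number called lower over the whole table also fell in each of these fits, from 169 to between 25 and 156. The number called lower was 1 (of 48 over all transcripts) without RNAi body column 1, 1 (of 62) without RNAi body column 2, 2 (of 85) without RNAi body column 3 and 5 (of 156) without RNAi body column 4. It was 1 (of 82) without control body column 2, 1 (of 25) without control body column 3 and 3 (of 107) without control body column 4, against 7 of 169 with all libraries. Fitting only the libraries of the body column left 1 of 27. Over all tested transcripts, the split in body columns also turned with scaling, with 471 higher and 169 lower with composition factors and 64 higher and 79 lower with library size alone.

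**Figure D2:**
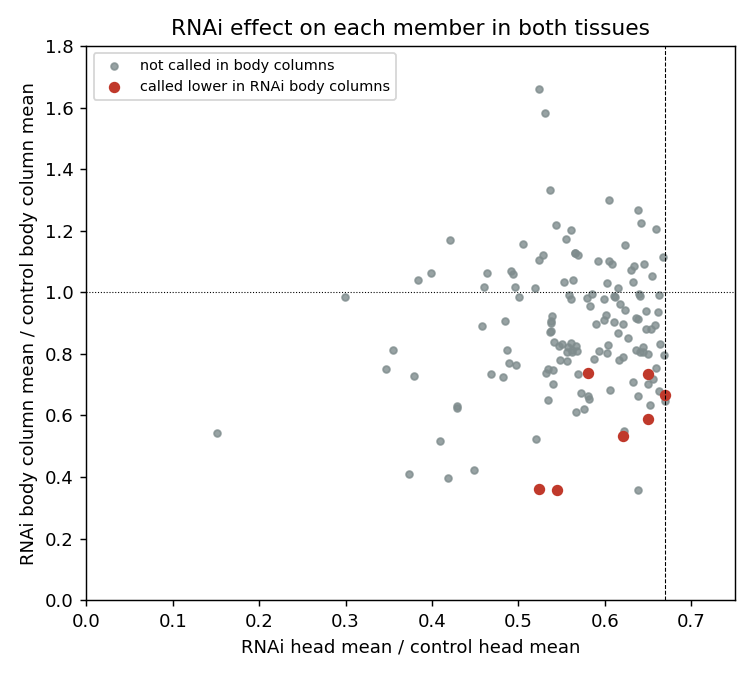
RNAi mean over control mean of each of the 145 transcripts in heads (horizontal axis) and in body columns (vertical axis), both ratios of CPM without unit. The dashed line marks the limit of 0.67 that the choice set in heads, the dotted line marks an equal level in body columns, and red points are the 7 transcripts called lower in RNAi body columns, which kept 0.359 to 0.738 there.

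The 7 transcripts called lower in body columns did not overlap between RNAi and control body columns, kept 0.359 to 0.738 of their control body column level, and had means of 5.33 to 182 CPM in control body columns. Of these 7, 4 were also called in heads, the contrast used by the rule, where 69 of the 145 (47.6%) were called. GGKF01010537.1, singled out after its values were seen because it had the lowest adjusted p, had 39.2, 48.3, 44.4 and 55.4 CPM in RNAi body columns and 95.5, 81.6 and 86.4 CPM in control body columns. On the log2 scale the fold change was −0.85 (SE 0.086), lower in 4 of 4 libraries (edgeR BH adjusted p = 0.00119). The call held without any single body column library (7 fits) and under the other 7 alternatives run for it, with BH adjusted p up to 0.0436. In heads it had 58.6, 58.3, 61.4 and 64.8 CPM after RNAi, against 96.5, 96.4, 96.2 and 103 CPM in controls. The lack of overlap in heads was required by the choice.

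Among the 7, the 2 largest falls on the log2 scale were those of rare transcripts. GGKF01051847.1 had 1.56, 1.48, 1.78 and 3.66 CPM in RNAi body columns, against 5.79, 6.68 and 5.23 CPM in control body columns (log2 fold change −1.44, SE 0.33, edgeR BH adjusted p = 0.0402). In heads it had 3.89, 1.81, 1.88 and 3.38 CPM after RNAi and 5.32, 5.79, 4.32 and 4.68 CPM in controls. The body column call held in 1 of the 7 fits that left out a library, that without RNAi body column 4, with BH adjusted p from 0.0144 to 0.146 and log2 fold changes from −1.82 to −1.32. The call was also lost with library size alone (BH adjusted p = 0.0731), with no filter (0.0841), with the replicate block (0.0823) and with body columns alone (0.126). GGKF01003585.1 had 2.25, 1.83, 3.42 and 2.42 CPM in RNAi body columns and 7.94, 6.69 and 5.96 CPM in control body columns (log2 fold change −1.41, SE 0.28, edgeR BH adjusted p = 0.0217). In heads it had 4.6, 3.62, 4.82 and 2.35 CPM after RNAi, against 5.57, 7.64, 6.74 and 9.45 CPM in controls. Its body column call was lost without control body column 2 or 3 and without RNAi body column 1 or 2, with BH adjusted p over the 7 fits from 0.0296 to 0.0765 and log2 fold changes from −1.60 to −1.29. It was also lost with the replicate block (BH adjusted p = 0.0696) and with body columns alone (0.0777).

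For other transcripts of the list the body column level after RNAi was near that of controls. In all, 44 of the 145 had an RNAi body column mean between 0.9 and 1.1 times that of control body columns, 57 lay between 0.67 and 0.9, and 23 (15.9%, against 5.05% of the tissue-shared transcripts) at or under 0.67. A further 19 lay between 1.1 and 1.5, and 2 above. The median kept share in heads was 0.567 for the 23 with the largest falls in body columns, 0.572 for the 57 and 0.598 for the 44 near an equal level. It was 0.566 for the 19 and 0.528 for the 2 above, so it did not rise steadily with the body column ratio. GGKF01053856.1, an abundant example, had 43.7, 40, 44.4 and 47 CPM in RNAi heads and 74.5, 72.6, 69.4 and 75.1 CPM in control heads. In body columns it had 43, 50.8, 50.8 and 60.7 CPM after RNAi and 55.2, 52.6 and 58.2 CPM in controls, which overlapped. GGKF01034492.1 had 37.8, 31.3, 41.3 and 47.2 CPM in RNAi heads and 64.6, 62.4, 68.8 and 60.4 CPM in control heads. In body columns it had 54.3, 44.2, 43.1 and 40.5 CPM after RNAi and 49.3, 41.8 and 43.4 CPM in controls, which overlapped as well. These transcripts were not called in body columns (edgeR BH adjusted p = 0.823 for GGKF01053856.1 and 0.829 for GGKF01034492.1).

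**Figure D3:**
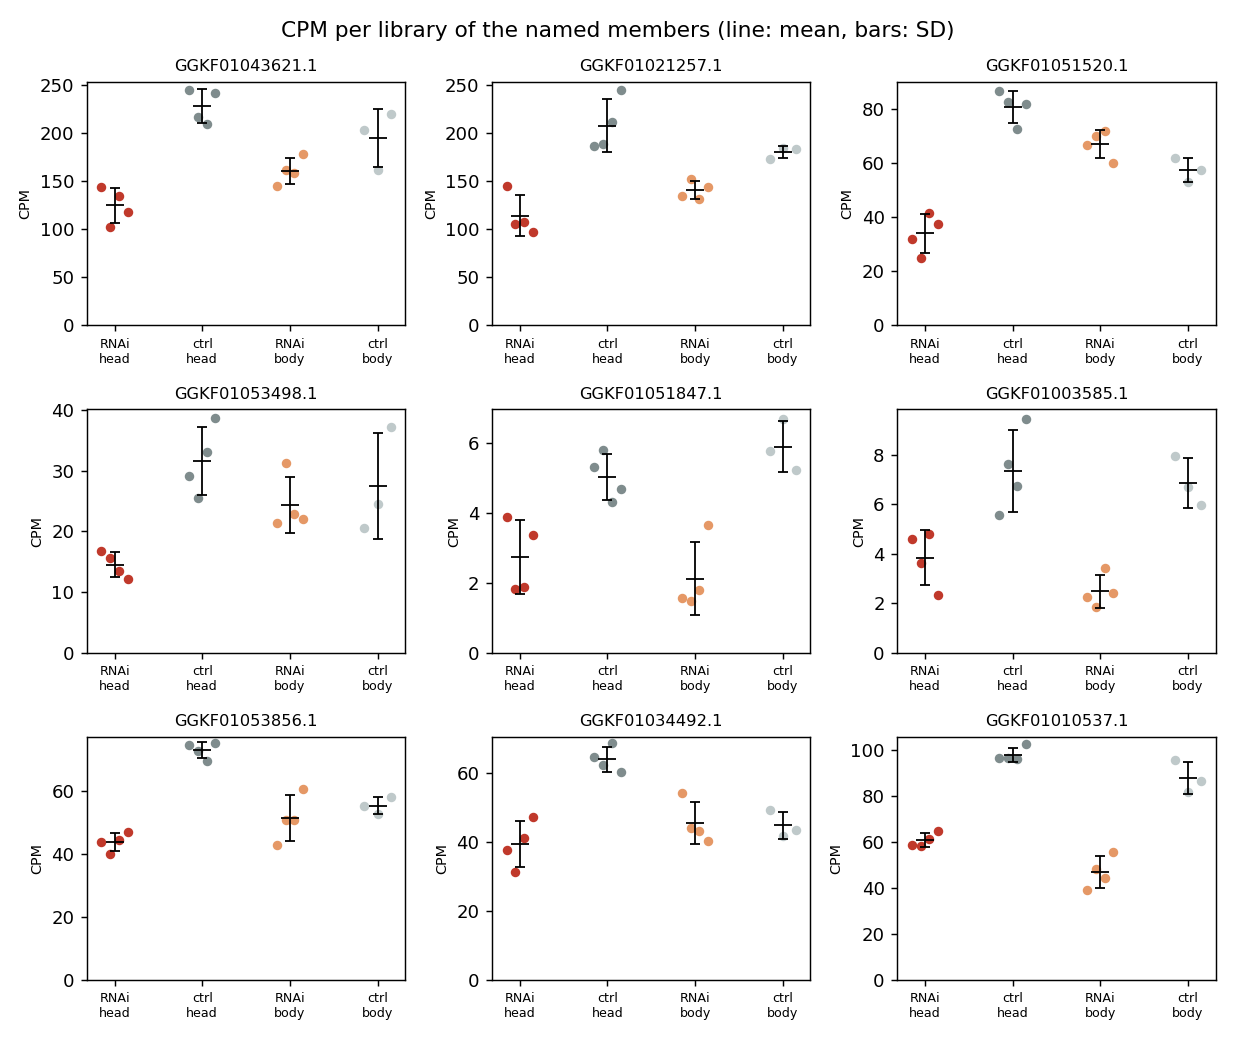
CPM (vertical axes, each from 0) of the 9 transcripts described by ID above, with 1 point per library. The groups are RNAi heads, control heads, RNAi body columns and control body columns, with the mean as a horizontal line and the SD as bars. The RNAi heads lie under the control heads in each panel by the choice of transcripts. In the body column, GGKF01051847.1, GGKF01003585.1, GGKF01010537.1 and GGKF01021257.1 have no overlap between RNAi and control libraries.

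The transcripts leaned toward the head within the limits set for an equal tissue level. In control animals the head to body column ratio had a median of 1.27 over the list, against 1.01 over all tissue-shared transcripts, and it exceeded 1 for 126 of the 145 (86.9%, against 52.3%). These ratios used CPM scaled to the library total. The composition factors were 1.04 to 1.12 in control heads and 0.960 to 1.03 in control body columns, so the ratios are higher on this scale than with the factors. All 4 control heads lay above the 3 control body columns for 50 of them (34.5%, against 23% of all tested and 16.6% of tissue-shared transcripts) and below for 5 (3.45%, against 13.3% and 15.3%). By the fit, 11 were called higher and 7 lower in control heads than in control body columns, where 14.6% and 14.1% of all tested transcripts, and 6.35% and 22.5% of the tissue-shared ones, were called, and 127 were called neither way. The control heads of this ratio also chose the list through the fall after RNAi, so these values are a description, and the label of an equal tissue level holds only as the range of ratios of the rule.

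After RNAi the head was the lower of the tissues for most of the list. The ratio of RNAi heads to RNAi body columns had a median of 0.805, with quartiles at 0.662 and 0.981, and 113 of the 145 had a lower mean in RNAi heads than in RNAi body columns. All 4 RNAi heads lay under all 4 RNAi body columns for 47 (32.4%, against 12% of all tested and 15.2% of tissue-shared transcripts), and above for 3 (2.07%, against 16.5% and 15.9%). In RNAi animals 102 still had a ratio between 0.67 and 1.5, while 39 fell under this range and 4 lay over it. Since the rule took transcripts that were low in RNAi heads, a lower ratio follows in part from the choice, and no test was made. The limits of the rule likewise leave almost no room for an RNAi head mean above the control body column mean, and 145 of 145 were below it. All 4 RNAi heads lay under the 3 control body columns for 77 (53.1%, against 14.5% of all tested and 16.4% of tissue-shared transcripts), from which nothing is read for the same reason.

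**Figure D4:**
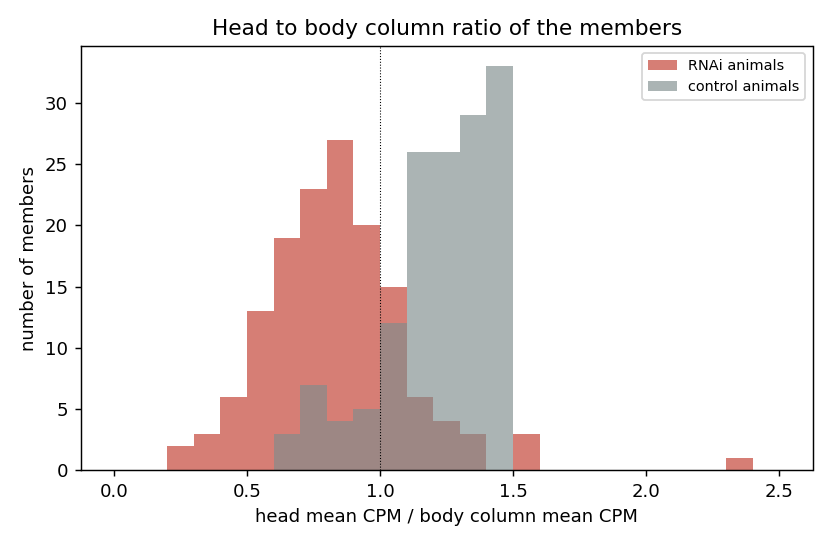
Number of transcripts (vertical axis) by their ratio of head mean to body column mean CPM (horizontal axis, bins of 0.1), in RNAi animals (red) and control animals (grey). The control ratios end at 0.67 and 1.5 by the choice and have a median of 1.27, and the ratios after RNAi have a median of 0.805.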

How the data were processed

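The authors deposited expected counts, that is estimated counts per assembled contig that need not be whole, in 1 table with a column for each of 15 libraries named by title. Salmon and DESeq2 1.26.0 are named in the submitters' processing notes, and the genome build, index and settings are not given in the sources used here. CPM were computed from the deposited values and the column totals. For tests, counts were rounded (library totals changed by at most 145), filtered with filterByExpr (31142 transcripts, 99.7% to 99.8% of counts) and scaled with TMM factors. Differences were tested in edgeR 4.0.16 under R 4.3.3 with the quasi-likelihood test, 1 mean for each of 4 groups, BH adjusted over all transcripts tested. DESeq2 1.42.0, other scalings and filters, single tissues, a replicate block and left-out libraries were alternatives. Called means an adjusted p under 0.05.

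Transcripts named were the 2 most abundant in control heads, the 2 with the lowest kept share at 20 CPM or more, up to 2 called lower and up to 2 called higher in body columns with the largest changes, and the 2 of the 20 most abundant with the smallest body column change. The list and the rule were chosen with earlier results of these data known. Counting errors take no account of amplification, which makes reads that are not independent.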

Additional observations from a re-analysis of the deposited data

Results flagged for a closer look

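Among 30 groups of 4 libraries checked for a library far from the other 3, 3 were marked, where chance marks about 1 in 20 groups. GGKF01053498.1 had 31.3 CPM in RNAi body column 2, against 21.5 to 22.9 CPM in the other RNAi body columns (gap over range 0.848, with a critical value of 0.829). GGKF01051847.1 had 3.66 CPM in RNAi body column 4, against 1.48 to 1.78 CPM in the others (0.861). GGKF01010537.1 had 103 CPM in control head 4, against 96.2 to 96.5 CPM in the others (0.952).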

How the results depend on the processing

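The list itself held 365 transcripts with a minimum of 1 CPM and 71 with 10 CPM, 55 with a narrower tissue ratio (lower limit 0.8) and 325 with 0.5 to 2, and 26 with a kept share of at most 0.5. Leaving out a library gave 141 to 195. In body columns, where 7 of the list and 169 of all transcripts were called lower, library size alone gave 3 of 79, no filter on low counts 3 of 59, the replicate block 1 of 22, the body columns alone 1 of 27, DESeq2 17 of 912, and a log2 change of at least 1 gave 2 of 55. Leaving out a body column gave 1 to 5 called lower and 0 to 1 called higher, and DESeq2 called 2 of 1588 higher. In heads, where 69 of 657 were called lower, DESeq2 gave 111 of 1533, a log2 change of at least 1 gave 8 of 214, the replicate block gave 51 of 452, and leaving out a head gave 50 to 64. The median log2 fold change in body columns kept its sign in every alternative and was −0.20 with library size alone. Of 126 fits of the 9 named transcripts in body columns, 16 lost a call and 3 turned sign. Only GGKF01051847.1, GGKF01003585.1 and GGKF01010537.1 had a call to lose, and all 16 losses were in the first 2 of them. GGKF01051847.1 kept its call in 1 of 7 fits without a library and in 3 of 7 other alternatives. GGKF01003585.1 kept its call in 3 of 7 and 5 of 7. On the log2 scale, with 1 body column left out, GGKF01053498.1 ran from −0.26 to 0.15 (positive without control body column 4), GGKF01053856.1 from −0.12 to 0.015 (positive without RNAi body column 1) and GGKF01034492.1 from −0.023 to 0.17 (negative without RNAi body column 1), none of them called. The cause of these changes was not tested. Deviations of libraries with the same replicate number were almost unrelated between RNAi and control libraries of a tissue (r from −0.015 to 0.040) and between heads and body columns of a treatment (r from −0.036 to 0.0053), so the numbers were not taken as pairs, and not every library correlated best with its own number. About 105 to 165 counts per library stood behind the median RNAi value, and fewer behind the transcripts near 5 CPM.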

Other observations

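Of the 7 transcripts called lower in RNAi body columns, 2 have IDs that lie close together in the table, GGKF01010537.1 and GGKF01010539.1, noticed after their values were seen. The ID between them, GGKF01010538.1, is also on the list. It had 32.8 to 47.4 CPM in RNAi body columns and 50.7 to 58.7 CPM in control body columns, and was not called there (edgeR BH adjusted p = 0.0657). Other transcripts of the list have neighbouring IDs too, such as GGKF01016873.1 and GGKF01016874.1. GGKF01010539.1 had 55.4 ± 9.12 CPM in RNAi heads and 82.7 ± 3.46 CPM in control heads (SD, n = 4 each), and 48.6 ± 6.30 CPM in RNAi body columns (SD, n = 4) and 73.0 ± 4.04 CPM in control body columns (SD, n = 3). Its values were all whole, while those of GGKF01010537.1 were all not whole. Its body column call (edgeR BH adjusted p = 0.0264) held in 2 of the 7 fits that left out a library, with BH adjusted p from 0.0237 to 0.0815. Whether contigs with neighbouring IDs belong to 1 gene was not tested.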
